A study of Mus musculus with 12 samples.

Results

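The genes described here encode 10 proteins that coat lipid droplets or set how their triglyceride is broken down, namely the perilipins Plin2, Plin3, Plin4 and Plin5, the CIDE proteins Cidea, Cideb and Cidec, the triglyceride lipase Pnpla2, and its inhibitors G0s2 and Hilpda. They were taken by gene symbol from a table of read counts, which held all 10 once among 56748 genes. RNA-seq was performed on whole livers of mice fasted for 24 h, in 3 genotypes with 4 livers each. The knockouts carried floxed alleles deleted by a Cre transgene under the albumin promoter, which is active in hepatocytes. Liver cells in which that promoter is never active keep the gene. The single KO (SKO) lacked Cpt2, which encodes the mitochondrial carnitine palmitoyltransferase needed for oxidation of long-chain fatty acids, and the double KO (DKO) lacked Cpt2 and the stress-induced transcription factor Atf3. The controls, called WT here, were labelled as floxed for Cpt1a, Cpt1b and Cpt2, so that they were not labelled as floxed for Atf3. The ages were not given in the sources used here, and no label said that the livers of a genotype came from separate litters or days, so p-values measure only the spread between these 12 samples. Each knockout was compared with WT, and DKO with SKO, to ask how the droplet genes changed with loss of Cpt2 and whether further loss of Atf3 altered that.

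A lipid droplet is a core of triglyceride and sterol esters under a phospholipid monolayer, and in a fasted liver it fills with fatty acids released from adipose tissue. Perilipins bind that surface and limit access of lipases. CIDE proteins gather at contacts between droplets, where Cidec (also called FSP27) passes lipid from the smaller to the larger droplet. Adipose triglyceride lipase, encoded by Pnpla2, makes the first cut in triglyceride, and G0s2 and Hilpda both bind and inhibit it. Several of these genes are known targets of the peroxisome proliferator-activated receptors, and Hilpda is also a known target of hypoxia-inducible factors.

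The sequences before the transcription starts of the 5 genes with the largest differences between genotypes or with a matched motif are shown first, as read from the RefSeq annotation on GRCm38.p6, where 9 of the 10 genes had a promoter window. Each run holds the 250 bases before the most upstream annotated start, 5' to 3' on the strand of the gene, and capitals mark the motif matches given after them. The windows are chr6:113435761-113436010 on the minus strand for Cidec, chr4:86670060-86670309 on the minus strand for Plin2, chr17:56109783-56110032 on the minus strand for Plin4, chr17:56117549-56117798 on the minus strand for Plin5 and chr6:29272238-29272487 on the plus strand for Hilpda.
Cidec: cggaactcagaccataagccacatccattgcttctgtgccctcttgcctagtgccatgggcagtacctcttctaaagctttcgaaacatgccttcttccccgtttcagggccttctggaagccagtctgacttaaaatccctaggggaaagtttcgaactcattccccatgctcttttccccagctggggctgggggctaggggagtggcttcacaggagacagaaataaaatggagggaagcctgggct
Plin2: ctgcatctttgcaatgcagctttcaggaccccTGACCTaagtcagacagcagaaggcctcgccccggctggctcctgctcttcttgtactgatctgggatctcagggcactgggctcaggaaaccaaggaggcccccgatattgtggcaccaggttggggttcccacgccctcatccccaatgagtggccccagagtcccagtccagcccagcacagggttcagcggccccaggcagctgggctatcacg
Plin4: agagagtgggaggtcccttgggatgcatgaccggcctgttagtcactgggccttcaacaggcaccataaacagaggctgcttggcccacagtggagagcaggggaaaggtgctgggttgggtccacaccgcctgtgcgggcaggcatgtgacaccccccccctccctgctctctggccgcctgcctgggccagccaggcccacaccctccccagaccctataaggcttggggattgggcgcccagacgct
Plin5: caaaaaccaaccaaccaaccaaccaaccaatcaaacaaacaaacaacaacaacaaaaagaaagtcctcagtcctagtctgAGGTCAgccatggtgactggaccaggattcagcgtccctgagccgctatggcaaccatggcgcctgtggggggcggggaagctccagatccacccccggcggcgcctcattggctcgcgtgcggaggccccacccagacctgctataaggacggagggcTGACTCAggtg
Hilpda: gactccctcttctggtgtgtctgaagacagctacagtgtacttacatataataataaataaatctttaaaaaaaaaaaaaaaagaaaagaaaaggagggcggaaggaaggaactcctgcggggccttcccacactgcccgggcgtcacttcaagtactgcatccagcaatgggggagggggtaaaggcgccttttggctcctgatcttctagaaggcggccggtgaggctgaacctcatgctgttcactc

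Motifs were searched as fixed letters on both strands of all 12 windows of the 9 genes and of 32851 windows of the same length over the genome. The nuclear receptor element AGGTCA was present in 14.0% of all windows, and among these genes it began 218 bases before the start of Plin2 (as its reverse complement) and 170 bases before that of Plin5. The direct repeat AGGTCANAGGTCA, bound by PPAR and RXR pairs and containing that element, was present in 0.0335% of all windows and in 0 of the 12. The AP-1 site TGACTCA was in 4.46% of all windows, and it began 11 bases before the start of Plin5 and 96 bases before a more downstream start of Cidec. The cAMP response element TGACGTCA, one of the sites that ATF3 can bind, was in 1.55% of all windows and in 0 of the 12. The core of the hypoxia response element, ACGTG, was in 16.6% of all windows and began 43 bases before a more downstream start of Hilpda. A match says only that the letters are present, and these stretches of 25 bases show the matches at the more downstream starts, at chr6:113434845-113434869 on the minus strand for Cidec and chr6:29272573-29272597 on the plus strand for Hilpda.
Cidec, downstream start: caggaggtgTGACTCAcctcctgcc
Hilpda, downstream start: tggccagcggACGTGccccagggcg

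Levels are given as CPM, that is read counts relative to library size after TMM scaling of all 12 libraries, and levels between genes are compared only as CPM per kb of gene length. Total counts were 14710304 to 20030055 per liver, and 3 counts, the limit that a count of 0 allows, came to 0.150 to 0.204 CPM by counting error only. The deleted gene Cpt2 was at 199 to 250 CPM in WT, and at 109 to 159 CPM in SKO and 99.9 to 125 CPM in DKO livers. Atf3 was at 1.11 to 2.14 CPM in WT livers, at 14.5 to 54.0 CPM in SKO livers and at 7.91, 10.8, 13.5 and 0.266 CPM in DKO replicates 1 to 4. Counts per whole gene include exons outside a floxed part. SKO replicate 3 and DKO replicate 4 had 18063 and 20855 counts of Xist against at most 19 in the other 10 livers, and 2 and 0 counts of 4 Y-linked genes against at least 2741, whereas the study describes the mice of this experiment as male. DKO replicate 4 also stood apart in the droplet genes: it was the lowest of the DKO livers for 7 of the 10, so the calls against WT are given with and without it. Its summed level of 8 hepatocyte markers was 93683 CPM against 41471 to 49358 CPM in the other DKO, 40064 to 67817 CPM in SKO and 73698 to 91390 CPM in WT livers, and the part of this in the results was not tested.

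Loss of Cpt2 was accompanied by a rise of 7 of the 10 genes. The droplet coat genes Cidec, Plin4 and Plin2 rose by 4.34, 4.00 and 3.15 on the log2 scale, and the lipase inhibitor Hilpda by 3.27. Plin5, Pnpla2 and Plin3 rose by 1.77, 1.69 and 1.65. Cideb and G0s2 did not pass the test, and Cidea had too few counts to enter it. All 7 genes that passed were higher in every SKO than in every WT liver. Of the 14261 genes tested, 32.1% passed the same threshold and 16.7% were called higher, and 17.2% were higher without overlap of the groups. The median log2 fold change was 1.77 over the 9 droplet genes tested and 0.03 over all genes. In whole liver, fewer cells of a type and less RNA per cell cannot be told apart.

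In DKO livers Plin2, Plin3, Plin4, Plin5, Cidec, Hilpda and Pnpla2 passed the test against WT, with log2 fold changes of 0.89 to 3.76, where 10.5% of 14448 genes were called and 6.06% were called higher. In 5 of the 7, all but Plin5 and Pnpla2, the DKO and WT livers did not overlap, and 7.72% of all genes were higher in this way. Counts of ribosomal RNA genes made up 1.45 to 2.86% of the DKO libraries, highest in DKO replicate 4, against 0.506 to 1.46% in WT and 0.877 to 1.56% in SKO, and the part of this in the results was not tested. The median was 1.70 over the 9 droplet genes tested and 0.03 over all genes. SKO and DKO were compared with the same 4 WT livers, so the 2 comparisons are not independent. Without DKO replicate 4, 7 of the genes were called, and 5253 of all genes in place of 1510. Without WT replicate 1, 3 were called and 263 of all genes, and without WT replicate 2, 3 and 244. Between DKO and SKO livers 0 of the 9 genes passed edgeR's test, as did 0 with DESeq2, and 1 of the 9 (Pnpla2) had an unadjusted p under 0.05. Over all 14363 genes, 0.0209% were called and 6.49% had an unadjusted p under 0.05.

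**Figure D1:**
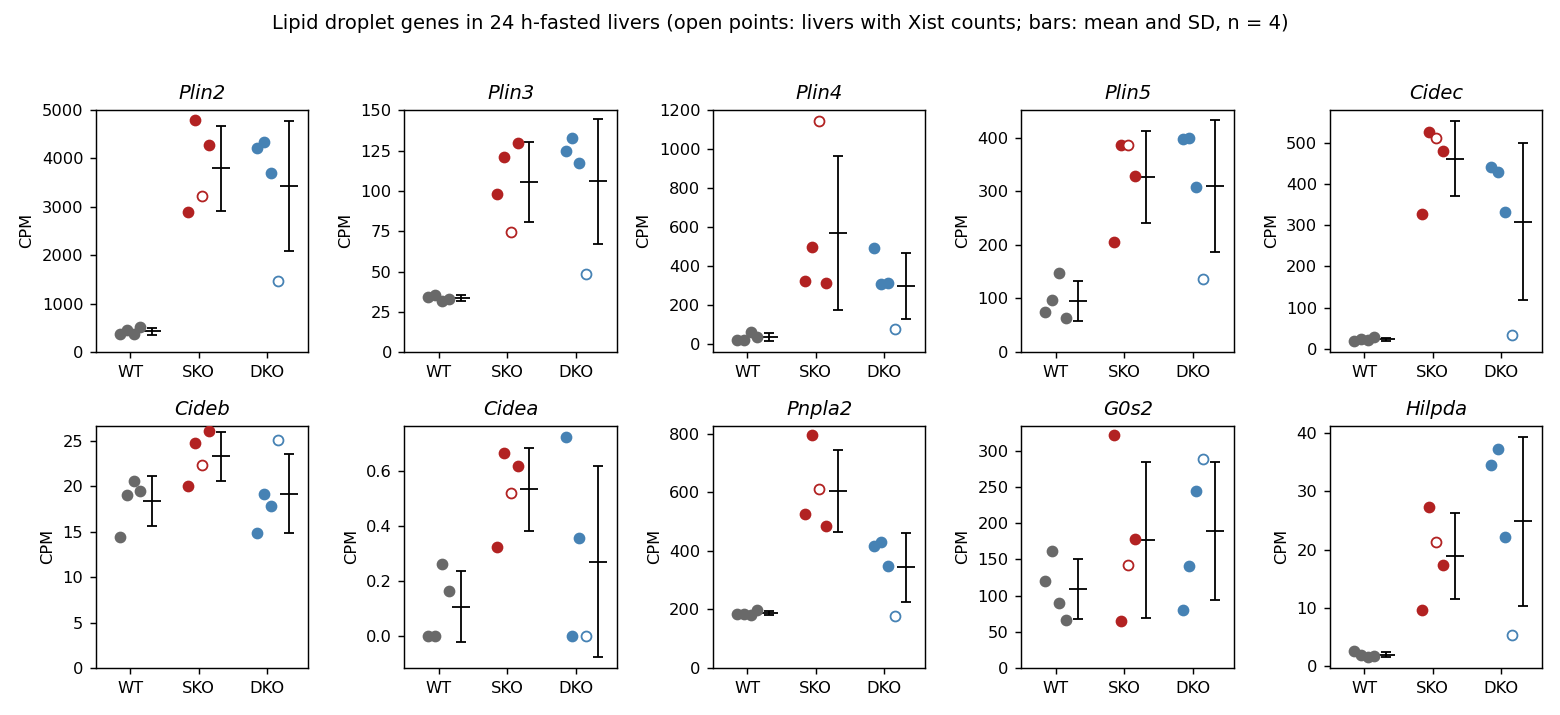
CPM of the 10 genes in each liver (linear axes, 1 panel per gene), with WT in grey, SKO in red and DKO in blue. Points are single livers, open points are SKO replicate 3 and DKO replicate 4, the livers with Xist counts, and bars give the mean and SD of 4 livers. For Plin2, WT livers sat between 364 and 524 CPM and all SKO livers at 2889 CPM or more, and DKO replicate 4 lay below the other DKO livers for 7 of the genes.

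Plin2, the perilipin of most cell types and the main one of liver, was the most abundant of the 10 per length in both knockouts. It is encoded at chromosome 4, 86566623 to 86588297, on the minus strand, in the coordinates of the deposited table (ENSMUSG00000028494), whose genome build was not established and is used for all gene positions here. Its level was 366, 452, 364 and 524 CPM in WT, 2889, 4783, 3221 and 4266 CPM in SKO, and 4220, 4328, 3696 and 1462 CPM in DKO livers. Every knockout liver was above every WT liver, and DKO replicate 4 was the lowest of the knockouts. The log2 fold change was 3.15 ± 0.21 (SE, adjusted p = 2.36e-06) in SKO and 3.02 ± 0.34 (adjusted p = 0.00385) in DKO, which are 8.87-fold and 8.09-fold, and it was 3.26 in DKO without replicate 4. DKO and SKO differed by -0.13 ± 0.33, less than the spread between livers, and by 0.12 without DKO replicate 4.

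Plin4, best known from adipose and muscle droplets, is encoded on chromosome 17 at 56407591 to 56416803 (ENSMUSG00000002831). It varied most among livers of a genotype of the perilipins, at 19.8, 22.4, 62.4 and 37.8 CPM in WT, 325, 497, 1145 and 313 CPM in SKO, and 494, 309, 315 and 79.9 CPM in DKO livers. SKO replicate 3 alone was above 500 CPM, and DKO replicate 4 was the lowest knockout liver. Plin4 rose by 4.00 ± 0.50 on the log2 scale in SKO (adjusted p = 0.000124) and 3.09 ± 0.55 in DKO (adjusted p = 0.0145), or 3.40 without DKO replicate 4. Without SKO replicate 3 the change in SKO was 3.41. In DKO the adjusted p was 0.0530 without WT replicate 1 and 0.0557 without WT replicate 2, and from 6.41e-08 to 0.0557 over 15 alternatives. The difference of -0.92 ± 0.54 between DKO and SKO, with an unadjusted p of 0.117, rested on those livers: it was -0.61 without DKO replicate 4, -0.32 without SKO replicate 3 and -0.0085 without both.

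Plin5, which tethers droplets to mitochondria in tissues that oxidize fat, is the neighbor of Plin4, on the same strand and 1797 bases away in the deposited table (ENSMUSG00000011305, 56418601 to 56424596). Its level was 74.8, 96.6, 148 and 63.8 CPM in WT, 205, 387, 386 and 328 CPM in SKO, and 398, 399, 307 and 136 CPM in DKO livers. SKO and WT did not overlap, while DKO replicate 4 lay within the WT range. On the log2 scale Plin5 rose by 1.77 ± 0.27 in SKO (adjusted p = 0.000507) and 1.70 ± 0.36 in DKO (adjusted p = 0.0227), with 1.95 in DKO without replicate 4. The adjusted p in DKO was above 0.05 when any one liver other than WT replicate 3 or DKO replicate 4 was left out, and ranged from 0.000108 to 0.0758 over 15 alternatives.

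Plin3, a perilipin of small and nascent droplets that is also found in the cytosol, completes the perilipins of chromosome 17 (ENSMUSG00000024197, 56584476 to 56599873), within a span of 192283 bases from Plin4. WT livers lay close together at 34.3, 35.5, 31.6 and 33.0 CPM. SKO livers were at 97.9, 121, 74.4 and 130 CPM and DKO livers at 125, 133, 118 and 48.5 CPM, so that both knockouts were above WT in every liver. The log2 fold change was 1.65 ± 0.17 in SKO (adjusted p = 3.1e-05) and 1.67 ± 0.27 in DKO (adjusted p = 0.0107), or 1.90 without DKO replicate 4. DKO and SKO differed by 0.02 ± 0.29, and by 0.25 without that liver.

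Proportions among the perilipins were computed within each liver. Plin2 made up 66.9% ± 9.56 (SD, n = 4) of the summed CPM per kb of Plin2 to Plin5 in WT livers. The share was 79.6% ± 6.14 in SKO livers, and 81.5% ± 1.05 in DKO livers. The WT range of 53.8 to 76.7% overlapped that of SKO, 70.5 to 83.5%, but not that of DKO, 80.0 to 82.2%. Plin5 took 15.7 to 36.8% in WT livers, against 9.83 to 14.2% in SKO livers and 11.5 to 12.9% in DKO livers. In DKO replicate 4 the shares were like those of the other DKO livers, with Plin2 at 82.1%. Plin1, the perilipin of adipocytes, had 0 counts in every WT liver, 3, 5, 5 and 10 counts in SKO and 3, 2, 0 and 1 counts in DKO livers. In CPM, SKO livers were above all WT and all DKO livers, and DKO overlapped WT. These counts are near the limit of detection, and the gene did not pass the filter on low counts.

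Cidec had the largest fitted fold change of the 9 tested genes in both knockouts, but its lead over Plin4 in SKO and over Hilpda in DKO was less than the SE of the latter genes. The order turned without WT replicate 3 in SKO (Plin4 at 4.402, Cidec at 4.29) and without WT replicate 1 in DKO (Hilpda at 3.799, Cidec at 3.66). It is encoded on chromosome 6, 113401595 to 113412721, on the minus strand (ENSMUSG00000030278). The level was 18.8, 23.4, 21.01 and 28.0 CPM in WT, 327, 527, 512 and 481 CPM in SKO, and 441, 429, 331 and 32.3 CPM in DKO livers. DKO replicate 4 was at 8.06% of the mean of the other DKO livers and only just above the highest WT liver. Cidec rose by 4.34 ± 0.20 on the log2 scale in SKO (20.2-fold, adjusted p = 2.88e-07) and 3.76 ± 0.65 in DKO (13.6-fold, adjusted p = 0.0131), or 4.14 in DKO without replicate 4. The adjusted p in DKO was 0.0530 without WT replicate 1 and 0.0533 without WT replicate 2, and from 1.03e-07 to 0.0571 over 15 alternatives. DKO and SKO differed by -0.58 ± 0.57, and by -0.20 without DKO replicate 4.

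Cideb, the CIDE protein that normal hepatocytes express and that takes part in VLDL lipidation, did not pass the test in any comparison. It was at 14.4, 19.0, 20.6 and 19.5 CPM in WT, 19.99, 24.8, 22.4 and 26.1 CPM in SKO and 14.8, 19.1, 17.8 and 25.1 CPM in DKO livers, and all 3 genotypes overlapped. The log2 fold change was 0.34 ± 0.15 in SKO (adjusted p = 0.0948) and 0.08 ± 0.18 in DKO (adjusted p = 0.807). It passed the threshold in SKO only with total counts in place of TMM (0.52, adjusted p = 0.0110), a scaling that moved the median of all genes by 0.17. In DKO against SKO it was -0.25 ± 0.19, and -0.43 without DKO replicate 4 (unadjusted p = 0.0215, adjusted p = 0.578). The other DKO livers were all below the SKO livers, and the share of all genes for which this held was not computed. The gene (ENSMUSG00000022219, chromosome 14, 55991507 to 55995915) shares 1451 bases with Nop9 on the opposite strand, and without stated strand counting, reads of the shared bases cannot be assigned.

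Cidea, the CIDE protein of brown fat that appears in fatty liver, was near the limit of detection (ENSMUSG00000024526, chromosome 18, 67476674 to 67500855). It had 0, 0, 4 and 3 counts in WT livers, 5, 13, 10 and 11 counts in SKO livers and 15, 0, 7 and 0 counts in DKO livers. All SKO livers were above all WT livers, whereas DKO livers covered the range of both. Mean levels were 0.106 ± 0.129 CPM in WT, 0.532 ± 0.151 CPM in SKO and 0.270 ± 0.346 CPM in DKO (SD, n = 4). An exact permutation test, two-sided, gave p = 0.0286 for SKO against WT, the smallest that 70 regroupings allow, and 0.0857 after adjustment over 3 tests. The same exact permutation test gave p = 0.543 for DKO against WT and 0.257 for DKO against SKO.

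Pnpla2 is the lipase of the set (ENSMUSG00000025509, chromosome 7, 141035111 to 141040656). It was tight in WT at 186, 183, 180 and 198 CPM, and reached 527, 797, 610 and 484 CPM in SKO and 417, 431, 347 and 177 CPM in DKO livers. It was the only one of the 10 genes whose DKO and SKO livers did not overlap, with all DKO livers lower, where 1.86% of all genes were lower in this way. Pnpla2 rose by 1.69 ± 0.16 on the log2 scale in SKO (adjusted p = 2.45e-05) and 0.89 ± 0.24 in DKO (adjusted p = 0.0473). DKO replicate 4 lay below every WT liver, and without it the change in DKO was 1.09 (adjusted p = 2.7e-05). Leaving out any one of the other 7 livers gave an adjusted p above 0.05 in DKO, and over 15 alternatives it ranged from 2.7e-05 to 0.124.

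The difference of Pnpla2 between DKO and SKO was -0.80 ± 0.28 on the log2 scale, or 1.75-fold lower, with an unadjusted p of 0.0147 and an adjusted p of 0.633. It was -0.59 ± 0.20 without DKO replicate 4 (unadjusted p = 0.0124, adjusted p = 0.496), and replicates 1 to 3 were likewise below every SKO liver. Over 15 alternative settings it ranged from -0.92 to -0.59, and the adjusted p from 0.253 to 0.974. Taken singly, the gene had an unadjusted p under 0.05, as did 6.49% of all genes. The difference did not pass the test over all genes.

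Hilpda, a small inhibitor of Pnpla2, was the least abundant of the genes that passed the filter in WT (ENSMUSG00000043421, chromosome 6, 29272487 to 29275445). It was at 2.50, 1.90, 1.63 and 1.76 CPM in WT, 9.67, 27.4, 21.3 and 17.4 CPM in SKO and 34.6, 37.3, 22.1 and 5.38 CPM in DKO livers. All knockout livers exceeded all WT livers, DKO replicate 4 least. Hilpda rose by 3.27 ± 0.31 on the log2 scale in SKO (9.65-fold, adjusted p = 2.09e-05) and 3.67 ± 0.53 in DKO (12.7-fold, adjusted p = 0.00892), or 4.00 in DKO without replicate 4. DKO against SKO was 0.40 ± 0.49 and, without DKO replicate 4, 0.73 ± 0.30 (unadjusted p = 0.0308, adjusted p = 0.623).

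G0s2, the other inhibitor of Pnpla2, did not pass the test in any comparison. It was at 120, 161, 89.1 and 66.0 CPM in WT, 322, 64.7, 142 and 178 CPM in SKO and 80.7, 141, 245 and 289 CPM in DKO livers. The groups overlapped, and the highest SKO liver was 4.98 times the lowest. The log2 fold change was 0.69 ± 0.40 in SKO (adjusted p = 0.217) and 0.81 ± 0.40 in DKO (adjusted p = 0.210), with 0.52 in DKO without replicate 4, which was the highest DKO liver. Leaving out single livers moved the value in SKO from 0.23 (without SKO replicate 1) to 0.97 (without SKO replicate 2, adjusted p = 0.0510) and that in DKO from 0.52 to 1.06 (without DKO replicate 1, adjusted p = 0.107). Over 15 alternatives the adjusted p was 0.0502 to 0.661 in SKO and 0.107 to 0.414 in DKO. The gene (ENSMUSG00000009633, chromosome 1, 192954469 to 192955525) lies wholly within Lamb3 on the opposite strand, which had up to 5051 counts in a liver, so reads of the 2 genes may not be separated.

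**Figure D2:**
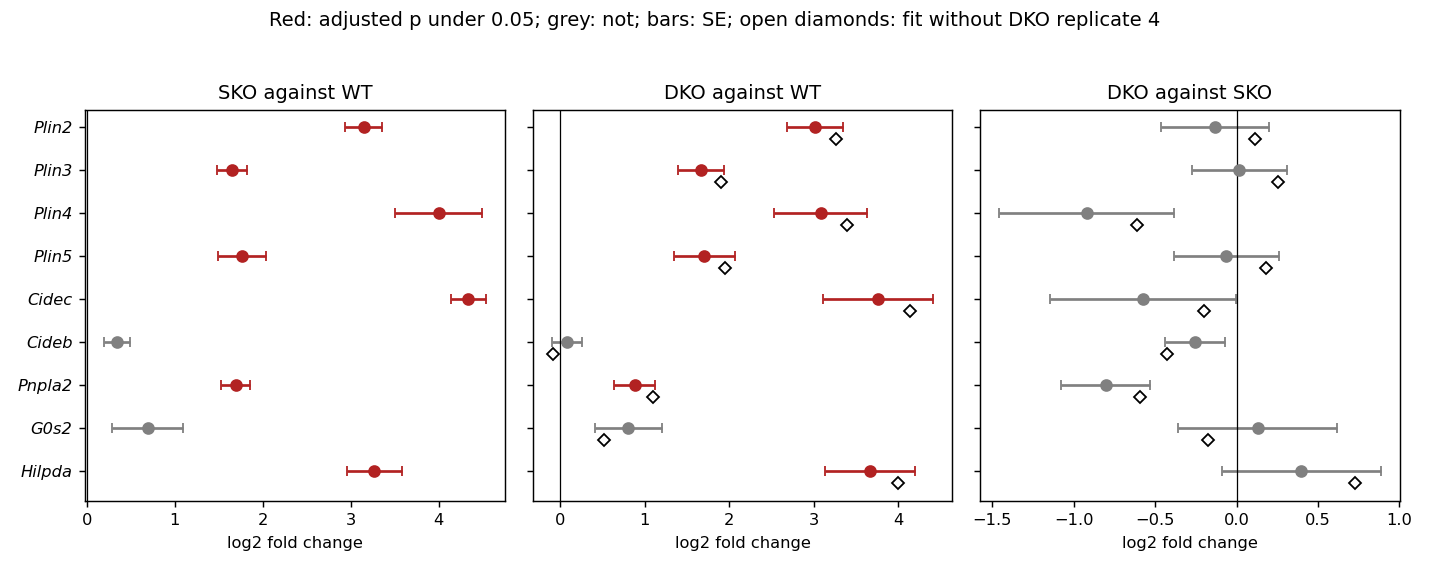
Log2 fold changes of the 9 tested genes (horizontal axis) in the 3 comparisons, from edgeR, with bars for the SE, red for an adjusted p under 0.05 and grey otherwise. Open diamonds give the value without DKO replicate 4. The 7 red genes of SKO against WT run from 1.65 (Plin3) to 4.34 (Cidec), and no gene is red in DKO against SKO, where Pnpla2 is at -0.80.

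Ratios of an inhibitor to the lipase within a liver do not depend on library scaling. Hilpda over Pnpla2, in CPM per kb, was 0.0285 ± 0.0058 in WT livers (SD, n = 4), and averaged 0.0845 ± 0.0229 in SKO and 0.180 ± 0.0705 in DKO. The WT livers were below all SKO livers, and DKO replicates 1 to 3 were above them, at 0.175 to 0.237, while DKO replicate 4 was at 0.0830, within the SKO range of 0.0502 to 0.0985. G0s2 over Pnpla2 was 2.04 ± 0.81 in WT livers, with 1.12 ± 0.78 in SKO and 2.48 ± 2.25 in DKO, with overlap of all 3 genotypes and DKO replicate 4 highest at 5.65.

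**Figure D3:**
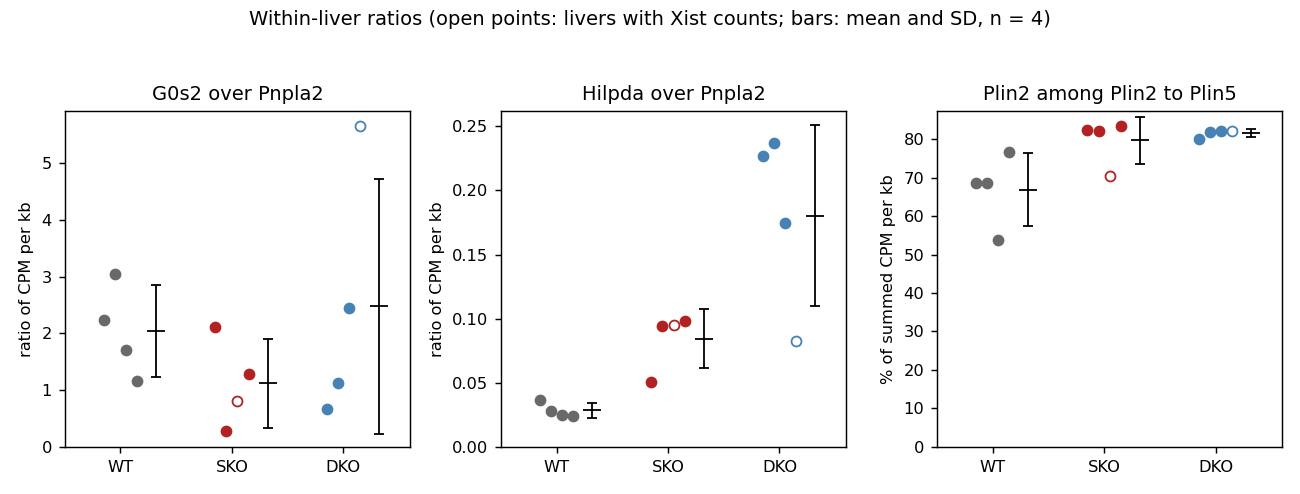
Ratios within each liver of G0s2 to Pnpla2 and of Hilpda to Pnpla2 (CPM per kb, linear axes), and the share of Plin2 in the summed CPM per kb of Plin2 to Plin5 (%). Points are livers, open for the pair with Xist counts, and bars give the mean and SD of 4. Hilpda over Pnpla2 is 0.0243 to 0.0368 in WT and 0.0830 to 0.237 in DKO livers.

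Per length, the order of the 10 genes differed between genotypes. In WT, G0s2 and Plin2 led at 125 and 121 CPM per kb with overlapping ranges, followed by Pnpla2 at 61.9 and Plin5 at 45.9, which overlapped. Cideb and Cidec were next at 12.3 each, then Plin3 at 8.87, Plin4 at 5.60, Hilpda at 1.76 and Cidea at 0.0953 CPM per kb. In SKO, Plin2 led at 1079 CPM per kb and overlapped no other gene, and Cidec came after it at 249, a level not separate from G0s2 at 203 CPM per kb, whose range met that of Pnpla2 at 200. Plin5 at 156 and Plin4 at 89.7 CPM per kb each overlapped the gene before it. In DKO, Plin2 at 976 CPM per kb was again apart from the next gene, G0s2 at 217, and each gene from G0s2 down to Hilpda overlapped the one after it, whereas Cideb did not overlap Cidea. Together the 10 genes took 0.0821 to 0.0898% of all counts in WT livers. In SKO livers they took 0.495 to 0.727%, and in DKO livers 0.219 to 0.657%.

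**Figure D4:**
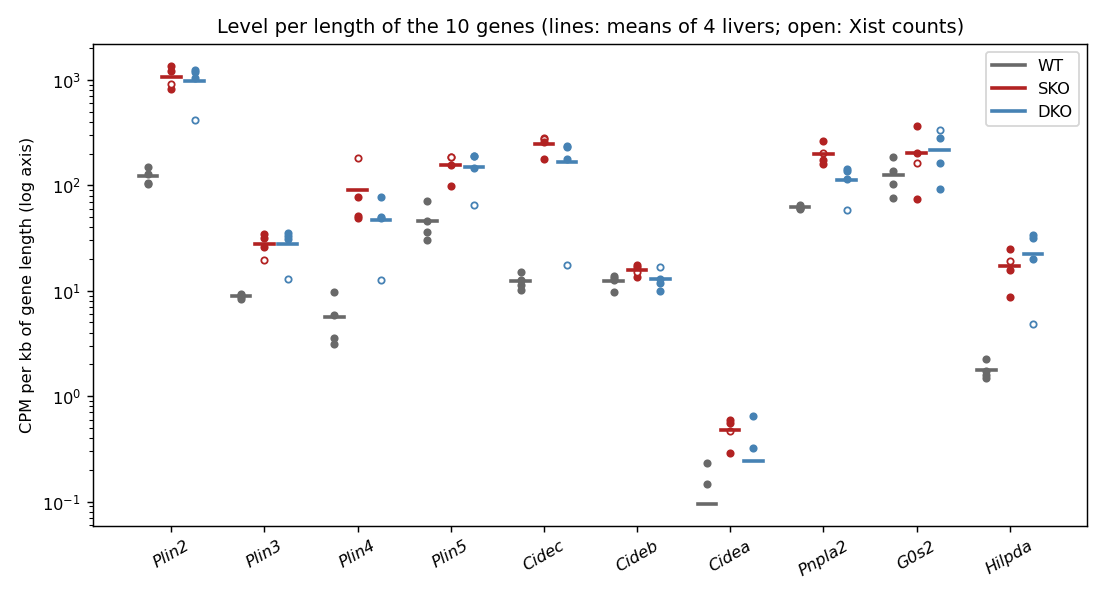
CPM per kb of gene length of the 10 genes (log axis) in WT, SKO and DKO. Points are livers, open for the pair with Xist counts, lines are means of 4 livers, and livers without counts of Cidea are not drawn. Plin2 is the highest in both knockouts, and Cidec moves from 12.3 in WT to 249 CPM per kb in SKO.

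Adipocytes also express many of these genes, so their markers were read in the same livers. The 7 adipocyte markers summed to 7.72 to 14.1 CPM in WT, 0.364 to 1.49 CPM in SKO and 0.551 to 5.75 CPM in DKO livers. Most of this was Adrb3, with means of 10.2 CPM in WT, 0.758 CPM in SKO and 1.94 CPM in DKO, and the other 6 had 0 to 21 counts each over all 12 livers. The part of adipocytes in the results was not tested. Of the defining markers Lep had 0 counts in every liver, and Adipoq 11, Retn 2 and Ucp1 1 over all 12. Skeletal muscle markers, 6 genes, summed to at most 1.48 CPM. Of the 8 hepatocyte markers, 4 were lower in SKO and 1 in DKO against WT, where 15.4% and 4.39% of all genes were called lower, and none was called higher.

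Markers of other liver cells also differed between the genotypes. The 7 markers of stellate cells, which store retinyl esters in droplets of their own, summed to 169 to 202 CPM in WT livers, with 232 to 322 CPM in SKO and 214 to 270 CPM in DKO, so that both knockouts lay above WT. Most of the sum was Dcn, with means of 116 CPM in WT, 178 CPM in SKO and 156 CPM in DKO. The means of Lrat, Reln and Hand2 were also higher in SKO than in WT, whereas those of Col1a1, Col3a1 and Des were lower. In DKO the means of all 7 were higher than in WT. Of the 7, Dcn alone was called higher in SKO (0.61 ± 0.14, adjusted p = 0.00630), where 16.7% of all genes were, and 0 were called in DKO. Of the 8 macrophage markers, Cd68 was higher in SKO, at 24.2 to 54.7 CPM against 5.66 to 11.1 CPM in WT (2.28 ± 0.28, adjusted p = 0.000107), and was at 9.48 to 24.96 CPM in DKO, while Marco was lower in DKO. The summed macrophage level overlapped, at 196 to 397 CPM in WT livers, 193 to 463 CPM in SKO and 117 to 390 CPM in DKO. The overlap of DKO came from replicate 4, since replicates 1 to 3 were at 117 to 183 CPM, below every WT and every SKO liver. The 5 cholangiocyte markers summed to 27.9 to 33.3 CPM in WT livers, with 7.41 to 14.4 CPM in SKO and 9.60 to 31.1 CPM in DKO, where DKO replicate 4 was the highest. Of the 4 tested, Spp1 and Sox9 were called lower in SKO, and Sox9 in DKO. The 5 erythroid markers overlapped, at 113 to 249 CPM in WT livers, 156 to 533 CPM in SKO and 127 to 713 CPM in DKO, with Hba-a1 and Hbb-bs higher and Alas2 lower in SKO, and Alas2 lower in DKO. None of the 6 endothelial markers (152 to 333 CPM in sum over the 12 livers) was called against WT, nor was the 1 tested of 6 lymphocyte markers (at most 4.95 CPM in sum). Beside these calls, 16.7% of all genes were called higher and 15.4% lower in SKO, and 6.06% and 4.39% in DKO. The part of these cell types in the results was not tested.

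Other genes of droplet formation, surface and lipolysis were taken from a list of 37, of which 33 were tested. In SKO 10 were higher and 4 lower than WT, and in DKO 2 were higher and 1 lower. These are 42.4% of the 33 tested genes in SKO, where 32.1% of all genes were called, and 9.09% in DKO, where 10.5% were. Their median log2 fold change was 0.02 in both comparisons. The count of 3 in DKO was 17 without DKO replicate 4 (8 higher, 9 lower), and 0 or 1 without any other single liver. Of the 10 formation genes, 2 were called in SKO (against 32.1% of all genes). Of these, Fitm2, which helps droplets bud from the endoplasmic reticulum, rose by 0.99 ± 0.14 in SKO (adjusted p = 0.000362). It was at 79.7 to 110 CPM in WT livers, all below the 146 to 204 CPM of SKO livers. Dgat1, an enzyme of triglyceride synthesis, rose by 0.82 ± 0.12. With all livers, edgeR called no formation gene in DKO. There 2 of the 10 and 29.4% of all genes had an unadjusted p under 0.05, and DESeq2 called Dgat1 (0.66, adjusted p = 0.0325). Without DKO replicate 4, edgeR called Dgat1 (0.86, adjusted p = 9.57e-05), Fitm2 (0.48, adjusted p = 0.00960) and Dgat2 (-0.37, adjusted p = 0.0324). In that fit 5253 of all genes were called.

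Among 13 tested surface genes, 3 were higher and 2 lower in SKO, or 38.5% against 32.1% of all genes. Hsd17b13, a hepatocyte droplet protein of the 17-beta-hydroxysteroid dehydrogenase family, was at 398 to 455 CPM in WT and 1115 to 1637 CPM in SKO livers, a change of 1.62 ± 0.15. In DKO livers it was at 1357, 1294, 1152 and 391.6 CPM, a change of 1.29 ± 0.33 (adjusted p = 0.0380), or 1.56 without DKO replicate 4. Its relative Hsd17b11 rose by 1.43 ± 0.22 in SKO. In DKO Hsd17b11 was at 0.55 (adjusted p = 0.149), or 0.74 (adjusted p = 0.00138) without DKO replicate 4. Mettl7a1 fell by 0.98 on the log2 scale in SKO. In DKO Mettl7a1 was at -0.55 (adjusted p = 0.103), or -0.80 (adjusted p = 0.000212) without DKO replicate 4. Ldah, a droplet-associated hydrolase, fell by 0.49 in DKO (adjusted p = 0.0357) and by 0.50 without DKO replicate 4.

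Of 10 tested lipolysis genes, 5 were higher, where 16.7% of all genes were, and 2 were lower in SKO. The monoacylglycerol lipase Abhd6 rose by 1.44 ± 0.20, the phospholipase Ddhd2 by 1.24 ± 0.18 and lysosomal acid lipase, Lipa, by 1.12 ± 0.12. Abhd6 was the 1 lipolysis gene of the 10 that edgeR called in DKO against WT, where 10.5% of all genes were called. It was at 0.58 ± 0.13 (adjusted p = 0.0282), or 0.61 without DKO replicate 4. DESeq2 also called Lipa (0.67, adjusted p = 0.0360). Without DKO replicate 4, edgeR gave 0.88 for Lipa (adjusted p = 0.000372) and 0.54 for Ddhd2 (adjusted p = 0.0411). In that fit 8 genes of the whole list were called higher and 9 lower. Of the 33 tested genes of the whole list, 3 were lower in DKO than in SKO livers without overlap (Abhd6, Ddhd2 and Fitm2) and 1 was higher (Spg20). Of all genes tested, 1.86% were lower and 2.08% higher in this way. Plin1, which did not pass the filter, was also lower without overlap. Abhd6 was at 75.6, 87.2, 83.8 and 74.0 CPM in DKO against 135, 184, 175 and 95.2 CPM in SKO livers, a difference of -0.86 ± 0.21 (unadjusted p = 0.0020, adjusted p = 0.396), or -0.83 without DKO replicate 4. Ddhd2 was at 61.7, 64.6, 48.9 and 32.1 CPM in DKO against 99.4, 109, 94.6 and 78.4 CPM in SKO livers, a difference of -0.87 ± 0.21 (adjusted p = 0.396), or -0.70 without DKO replicate 4. Fitm2 differed by -0.59 ± 0.17 (adjusted p = 0.472), or -0.51 without that liver, and Spg20 by 0.44 ± 0.15 (adjusted p = 0.619). With DESeq2 the adjusted p was 0.0317 for Abhd6 and 0.0402 for Ddhd2, whereas edgeR called 0 of the 33 genes, 10 of which (30.3%) had an unadjusted p under 0.05, against 6.49% of all genes.

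Of 11 regulators of droplet genes, all tested, 2 were higher, where 16.7% of all genes were, and 3 lower in SKO, and 2 were higher and 1 lower in DKO (27.3%, against 10.5% of all genes called). Pparg, a nuclear receptor that drives Cidec and Plin4 in fat, was at 7.25 to 8.68 CPM in WT, 20.4 to 25.5 CPM in SKO and 13.6 to 22.1 CPM in DKO livers. It rose by 1.48 ± 0.14 in SKO (adjusted p = 1.95e-05) and 1.27 ± 0.17 in DKO (adjusted p = 0.00636), with 1.40 in DKO without replicate 4. Hif1a rose by 0.65 ± 0.15 and 0.54 ± 0.14, with 0.59 in DKO without replicate 4. Rxra, the partner of the PPARs, fell by 0.62 and 0.67 on the log2 scale (and by 0.85 in DKO without replicate 4). Srebf1, of insulin-driven lipogenesis, fell by 1.22 in SKO. In DKO Srebf1 was at -0.58 (adjusted p = 0.461), or -1.42 (adjusted p = 0.000429) without replicate 4. No regulator was called between DKO and SKO, and 0 had an unadjusted p under 0.05. Of these lists, 6 genes named here were called by edgeR in DKO against WT with all livers kept. Pparg kept the call under 15 alternatives. The other 5 (Hsd17b13, Ldah, Abhd6, Hif1a and Rxra) lost it under 8 to 10 of them. Among these were most of the fits without 1 liver other than DKO replicate 4.

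**Figure D5:**
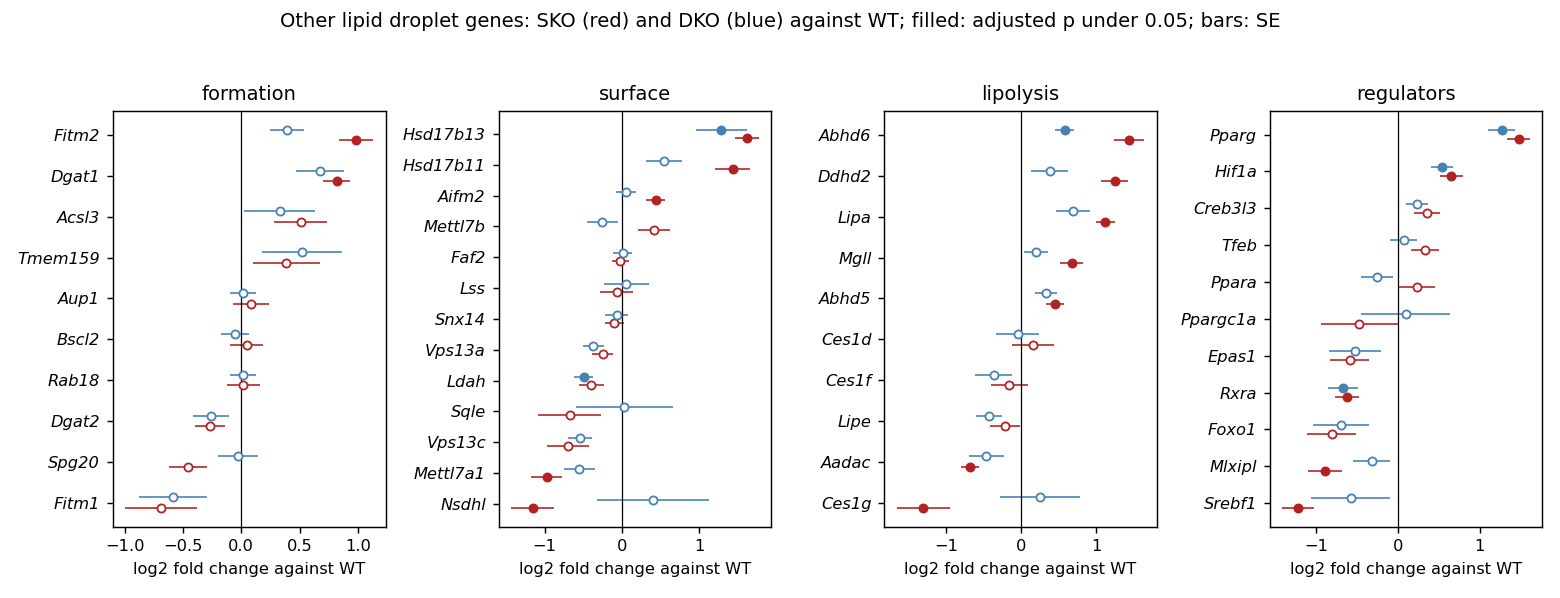
Log2 fold changes against WT (horizontal axes) of the other tested genes of droplet formation, surface, lipolysis and regulation, in SKO (red) and DKO (blue), with bars for the SE. Filled points have an adjusted p under 0.05 in edgeR. In SKO 2 formation, 5 surface, 7 lipolysis and 5 regulator genes are filled, out of 10, 13, 10 and 11 tested, where 32.1% of all genes were called.

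The genes with profiles most like that of Cidec, by the root mean square difference of centered log2 CPM over 12 livers among 14911 genes, were Ccdc120 (0.28), Gm33699 (0.38), Cntnap1 (0.38), Uap1l1 (0.40) and Endod1 (0.43). The measure is a description, and its values share the libraries. The nearest of the other droplet genes were Plin4 at 0.67, Hilpda at 0.71 and Plin2 at 0.75, and the farthest were G0s2 at 2.12 and Cideb at 2.02. Ccdc120 was at 1.85 ± 0.502 CPM in WT, 34.1 ± 8.13 CPM in SKO and 25.9 ± 17.4 CPM in DKO livers (SD, n = 4), with 1.86 CPM in DKO replicate 4.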

How the data were processed

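Whole-liver RNA-seq of 12 mice was used. The authors deposited a table of raw read counts for each Ensembl gene, not normalized. The labels name HISAT2, GRCm38 and mm10 without saying which step each belongs to. The starts of 0 of the 10 genes, and of 1485 of 52073 genes, equal those of GENCODE M21 on GRCm38, so the build of the deposited coordinates was not established. The counting program and its strand setting are not given in the sources used here. The authors also deposited FPKM and tables of their own fold changes and p-values, and these were not used.

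Pairs of genotypes were compared with edgeR 4.0.16 in R 4.3.3 (TMM within the 8 livers, filterByExpr, two-sided quasi-likelihood test), with Benjamini-Hochberg adjustment over all genes tested and a threshold of 0.05. Standard errors were derived from the fold change and the test statistic. The script was tested on simulated data. Cidea, which failed the filter, was tested by exact permutation. Groups were called non-overlapping from CPM over all 12 livers. Total counts per liver were 14710304 to 20030055. No library was a copy of another, with a smallest chi-square per degree of freedom of 18.5 within a genotype.

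The genes and lists were chosen with earlier results of these data known. All 10 genes are described. Of the other droplet genes and regulators, the text may name the 3 with the smallest p among those called in each list and comparison. Plin1, Dgat2 and the called cell type markers were named after their values were seen. So were the tested genes of these lists without overlap between DKO and SKO (Abhd6, Ddhd2, Fitm2 and Spg20). Alternatives were DESeq2 1.42.0, other scalings, no filter, 1 fit over 12 livers, a replicate block and left-out livers.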

Additional observations from a re-analysis of the deposited data

Results flagged for a closer look

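Over 54 genes, which are the 10 droplet genes and the other tested droplet genes and regulators, 162 group values were examined, and in 11 of them 1 liver lay far from the other 3 of its genotype by Dixon's criterion at 95%. Chance flags about 1 in 20, or 8.1, and the genes share their libraries. DKO replicate 4 accounted for 7 of the 11, and was the highest DKO liver in each. Its Srebf1 level was 112 CPM against 25.9 to 29.4 CPM in the other DKO livers, and its Mettl7a1 level was 259.5 CPM against 144 to 163 CPM. The sterol synthesis genes Nsdhl and Sqle were at 62.7 CPM against 6.31 to 8.83 CPM and at 63.9 CPM against 11.1 to 14.8 CPM. Ces1g was at 326 CPM against 47.0 to 82.9 CPM, Aadac at 374 CPM against 172 to 201 CPM, and Epas1 at 227 CPM against 85.3 to 93.2 CPM. Each of the other 4 was also the highest of its genotype. In SKO replicate 2, Aup1 was at 162 CPM against 100.03 to 110.01 CPM and Creb3l3 at 855 CPM against 565 to 610.2 CPM. In WT replicate 3, Spg20 was at 54.4 CPM against 33.7 to 36.7 CPM and Foxo1 at 109 CPM against 44.4 to 55.0 CPM. None of the 10 droplet genes themselves passed this criterion.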

How the results depend on the processing

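In SKO against WT, 7 of the 10 genes were called under every alternative, except 8 with total counts (Cideb added) and 8 without the filter (Cidea added, 2.31, adjusted p = 0.0338). In DKO against WT, 7 were called, 6 with RLE scaling, 5 with the replicate block and 3 to 7 without single livers. The 3 genes called without WT replicate 1 or without WT replicate 2 were Plin2, Plin3 and Hilpda, where 263 and 244 of all genes were called. Over all genes the count for DKO against WT was 1510, with 2635 by DESeq2, 691 with the replicate block, 5253 without DKO replicate 4 (the only liver with Xist counts there) and 244 to 5253 without single livers. For DKO against SKO it was 3, with 97 by DESeq2, 35 without the filter, 0 with the replicate block, 21 without the livers with Xist counts and 0 to 15 without single livers. The share called higher was 52.0% in SKO and 58.0% in DKO against WT, but 70.6% and 79.2% with total counts, which shifted the median of all genes by 0.17 in both comparisons. The cause of these changes was not tested.

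Near-zero fold changes turned sign. For Cideb in DKO against WT, leaving out DKO replicate 4 gave -0.086 and leaving out WT replicate 1 gave -0.040. In DKO against SKO, Plin2 was 0.12 without DKO replicate 4 and 0.046 without the livers with Xist counts, Plin5 0.27 and G0s2 -0.26 without the latter, and Plin3 -0.0062 without the filter and -0.029 with the replicate block. Without single livers Plin2 ranged from -0.25 to 0.12, Plin3 from -0.11 to 0.25, Plin5 from -0.24 to 0.18, and G0s2 from -0.18 to 0.59. Cideb in DKO against WT ranged from -0.086 to 0.19. The level per kb in WT was 8.18 for Plin3 and 57.1 for Pnpla2 with total counts. Other called droplet genes in DKO against WT numbered 3, with 6 by DESeq2, 5 with total counts, 0 with the replicate block and 17 without DKO replicate 4.

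Replicate numbers showed no sign of pairing: correlations of same-numbered deviations were -0.34 to 0.089, and most livers correlated best with another number. The check cannot exclude shared litters or days. At this depth Cidea was the only one of the 10 genes near the limit of detection.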
